A study of Mus musculus with 6 samples.

Results

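The 10 guidance genes were followed in the mouse retina: the semaphorin ligands Sema3a, Sema3c, Sema3e, Sema3f and Sema6a, the plexin receptors Plxna1 and Plxnd1, the Slit ligand Slit2 with its receptor Robo1, and the netrin Ntn4. They were chosen by gene name as cues of retinal vessels and axons, and all 10 were found among 54532 listed genes. RNA was sequenced from retinas of mice with oxygen-induced retinopathy, a model in which high oxygen prunes growing vessels and return to room air drives new ones. All mice were placed with their mothers in 75% ± 2% oxygen on postnatal day 7. On day 12 an eye received 1 nmol of miR-381-3p antagomir, an antisense oligonucleotide that blocks this microRNA, or 1 nmol of a negative control antagomir, and retinas were taken on day 17. Each group had 3 libraries. The labels give no strain, sex or genotype and no uninjected or normoxic group, and do not state that each library is a different animal, so the p-values below reflect only how much these samples vary. The control libraries are named for the negative control, and the other 3 were taken as antagomir libraries by elimination, so every direction rests on that reading.

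Semaphorins are secreted or membrane-bound cues that mostly repel growth cones by way of plexins, and the secreted class usually needs neuropilins as binding partners. Slits act on Robo receptors, and netrins on DCC, neogenin and UNC5 receptors. In the retina the same cues steer ganglion cell axons, neurite layers and endothelial tip cells. In mice with this retinopathy, semaphorin 3A from ischemic ganglion cells is known to repel vessels from the avascular zone.

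The antagomir targets a microRNA whose bases 2 to 8, the seed, pair with target transcripts. The mature sequence is printed with its seed in capitals because the sites below were searched from it. It lies at chr12:109726870-109726891 on the plus strand of GRCm38.p6, and the sequence is RefSeq's.

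mmu-miR-381-3p: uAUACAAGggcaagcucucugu

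The complement of this seed, CTTGTAT, was searched on the transcript strand of every member, in its longest 3′ UTR of GENCODE M21. It occurred once in Sema3c and once in Ntn4, and in none of the other 8 UTRs. Both stretches of 30 bases are shown with the match in capitals, because they are the only matches among the members.

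Sema3c: gcatgcattttCTTGTATgatacagactag

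Ntn4: ttttcttccttCTTGTATtaacagtacatg

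The Sema3c stretch lies at chr5:17727906-17727935 and the Ntn4 stretch at chr10:93746888-93746917, both on the plus strand of GRCm38. The Sema3c match begins 161 bases after the stop codon in a UTR of 2512 bases, and the Ntn4 match 1046 bases after it in a UTR of 1354 bases. The match was present in 13.0% of 13178 tested genes with a 3′ UTR. Among UTRs within 25% of the length of Sema3c's it was present in 19.6%, and in 11.9% of those near the length of Ntn4's. The shorter match TTGTAT, which the longer one contains, was present in 8 of the 10 members and in 42.6% of the 13178 genes; Plxna1 and Plxnd1 lacked it. Most member UTRs are longer than the median of 1201 bases, and among UTRs near a member's length the share with TTGTAT ran from 34.2% for Sema3f and Plxnd1 to 78.3% for Sema3e. The count of 8 is therefore not to be read against the 42.6%. A match is a run of letters and not evidence of binding.

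No guidance gene passed the test between antagomir and control retinas by limma, a linear model of log2(FPKM + 1) fitted over all genes. FPKM is a fragment count scaled by gene length and library size, the latter here by a size factor in place of the read total. Of the 10 members, 9 had a mean of at least 0.5 FPKM and were tested, and Sema3c was below that level. The tested members with a higher antagomir mean numbered 4, with 5 lower, and their median log2 difference was -0.047, beside 0.0013 over all 17453 genes. None of the 9 passed an adjusted p of 0.05 (adjusted p from 0.818 to 0.954), where 0% of all genes passed. At an unadjusted p under 0.05 there were 0 members, where 6.2% of all genes were called, 3.22% as higher and 2.98% as lower, and voom on rebuilt reads also gave 0. The antagomir and control libraries overlapped for all 10 members, while 12% of the tested genes had groups that did not overlap.

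**Figure D1:**
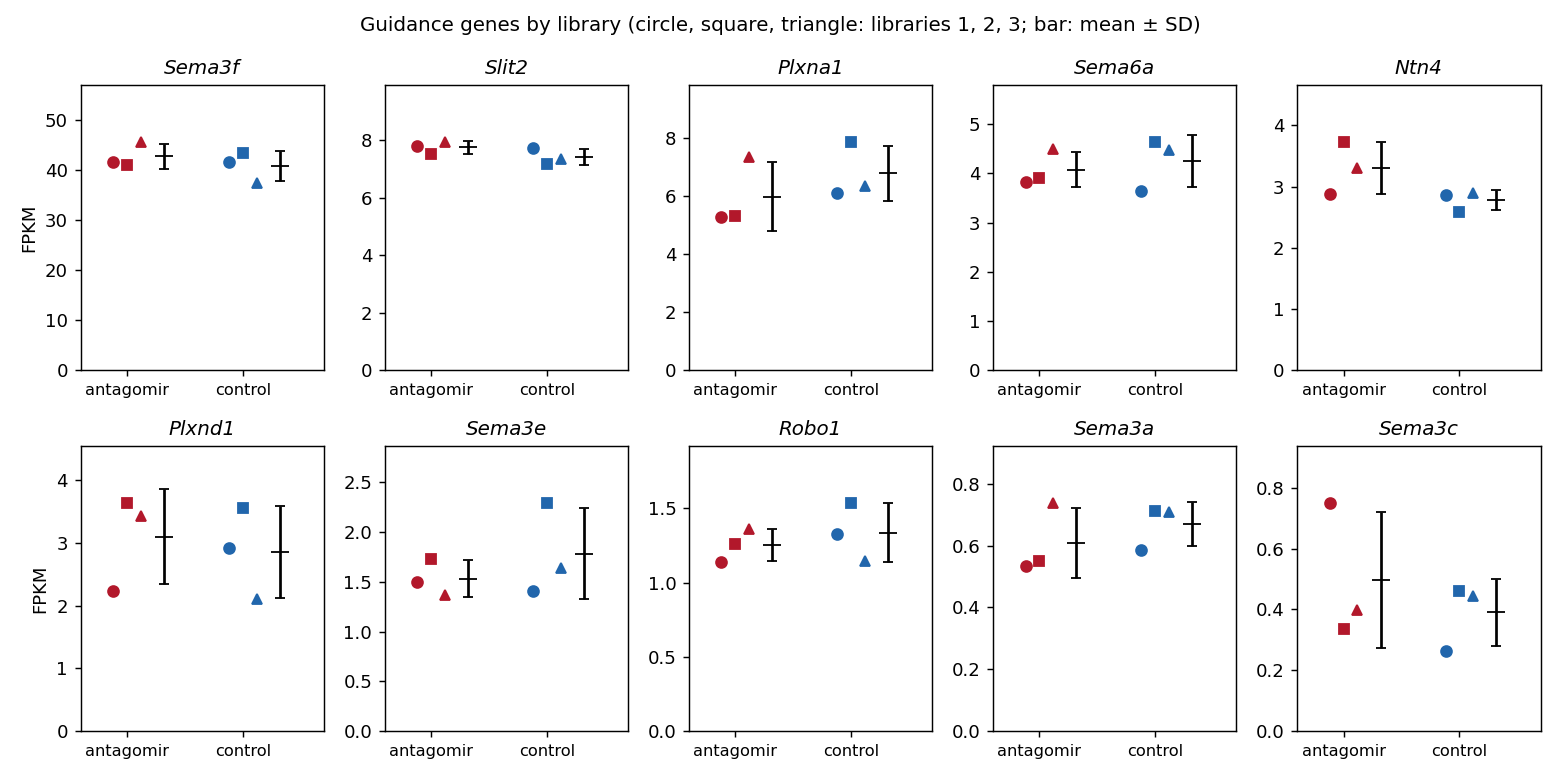
Level of each guidance gene in FPKM (vertical axes, from 0) in 3 antagomir and 3 control libraries, with mean ± SD beside each group. The groups overlap in every panel, and the levels run from below 1 FPKM for Sema3a and Sema3c to about 41.8 FPKM for Sema3f.

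The libraries themselves differed in tissue content. Libraries held from 13727596 to 16502352 reads in genes. The 6 rod photoreceptor markers summed to 8176 to 9452 FPKM. The 5 red blood cell markers summed to 21.4 to 61.2 FPKM in antagomir libraries and to 66.4 to 220 FPKM in controls, without overlap. Their mean log2 levels, centred over the libraries, did overlap, at 0.016 in antagomir library 3 and -0.195 in control library 3. The 7 microglia markers summed to 37.3 to 92.7 FPKM in antagomir libraries and to 33.0 to 43.5 FPKM in controls. Neither list had a gene past adjustment. The 15 lens markers, which should be nearly absent, summed to 367 FPKM in antagomir library 1, 870 in control library 2 and 308 in control library 3, against 4.69 to 8.94 in the other 3. In antagomir library 3 the lens genes Crygs, Crybb2, Lim2 and Gja3 were at 0. Results are therefore also given without those 3 libraries, which leaves 2 antagomir libraries against 1 control.

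Among the ligands of the 10 members, Sema3f was by far the most abundant. It encodes a secreted semaphorin that signals through neuropilin-2 and is known for keeping the outer mouse retina free of vessels (ENSMUSG00000034684, chromosome 9, 107681500 to 107710475, minus strand, GRCm38). Its level was 41.6, 41.1 and 45.6 FPKM in antagomir libraries 1 to 3 and 41.6, 43.4 and 37.5 FPKM in control libraries 1 to 3. The highest library was an antagomir one and the lowest a control, with the rest interleaved. The means were 42.8 ± 2.47 and 40.8 ± 3.00 FPKM (SD, n = 3 each), a log2 difference of 0.067 (SE 0.072, adjusted p = 0.904 by limma). The 95% interval of the ratio, here and below on the FPKM + 1 scale, was 0.930 to 1.18. The difference was 0.0089 without control library 3 and 0.11 without control library 2.

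Sema3a, the vessel-repelling semaphorin of hypoxic ganglion cells, was weakly detected (ENSMUSG00000028883, chromosome 5, 13125414 to 13602565, plus strand). It was at 0.536, 0.549 and 0.739 FPKM under the antagomir and 0.586, 0.712 and 0.709 FPKM in controls, from 108 to 169 reads per library. Antagomir libraries 1 and 2 were the lowest of the 6 and antagomir library 3 the highest. The log2 difference was -0.055 (SE 0.12, adjusted p = 0.954 by limma), with a 95% interval of the ratio from 0.788 to 1.18. Without the 3 libraries with lens transcripts the difference was 0.049.

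Sema3e is the semaphorin that binds plexin D1 directly, without a neuropilin, and mouse retinal ganglion cells make it (ENSMUSG00000063531, chromosome 5, 14025276 to 14256689, plus strand). Its level was 1.50, 1.73 and 1.37 FPKM under the antagomir and 1.41, 2.30 and 1.64 FPKM in controls. Control library 2 stood above all others, and the remaining 5 libraries were interleaved. The log2 difference was -0.13 (SE 0.14, adjusted p = 0.911 by limma), and 0.0027 without control library 2, so its direction rests on that library. It was 0.078 without the 3 libraries with lens transcripts. The 10 ganglion cell markers summed to 268 to 321 FPKM in antagomir libraries and to 292 to 388 FPKM in controls. All 10 had a lower mean log2 level in antagomir libraries, with a median log2 difference of -0.23 and 0 past adjustment. Groups did not overlap for 1 of the 10, where 12% of all tested genes had such groups. The sum in control library 1, 292 FPKM, lay below those of antagomir libraries 1 and 3, 302 and 321 FPKM. The part of these markers in the Sema3e values was not tested. In RNA from whole retinas, fewer cells of a type and less RNA per cell cannot be told apart.

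Sema3c, another secreted class member (ENSMUSG00000028780, chromosome 5, 17574281 to 17730268, plus strand), had 78, 39 and 47 reads in antagomir libraries 1 to 3, and control libraries 1 to 3 had 28, 50 and 44. The corresponding levels were 0.751, 0.336 and 0.399 FPKM and 0.264, 0.461 and 0.446 FPKM. Antagomir library 1, one of the libraries with lens transcripts, was the highest, and its count has a 95% Poisson interval of 61.7 to 97.3 reads, which covers counting error only. That interval lies above the point counts of the other 5 libraries but overlaps the intervals of 2 of them. The difference of mean log2 levels was 0.098 (exact two-sided permutation p = 0.6, where 3 against 3 libraries cannot go below 0.1), and -0.021 without antagomir library 1.

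Sema6a encodes a transmembrane semaphorin that binds plexins A2 and A4 and helps to order neurite layers in the mouse retina (ENSMUSG00000019647, chromosome 18, 47235598 to 47368870, minus strand). It was at 3.83, 3.91 and 4.49 FPKM under the antagomir and 3.65, 4.64 and 4.47 FPKM in controls. The lowest and the highest library were both controls. The log2 difference was -0.047 (SE 0.10, adjusted p = 0.954 by limma), with a ratio interval of 0.817 to 1.15. The difference was 0.0068 without control library 2 and 0.16 without the 3 libraries with lens transcripts.

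Of the plexins, Plxna1 had the lowest log2(FPKM + 1) difference of the tested members without passing the test. Sema3e was lower by the ratio of mean FPKM, at 0.860 against 0.882, and by voom, at -0.20 against -0.19 on the log2 scale. Plexin A1 is a signalling receptor for class 3 semaphorins together with neuropilins (ENSMUSG00000030084, chromosome 6, 89316314 to 89362620, minus strand). Its level was 5.29, 5.29 and 7.33 FPKM under the antagomir and 6.11, 7.85 and 6.34 FPKM in controls. Antagomir libraries 1 and 2 lay below every control, and antagomir library 3 lay above 2 of them. The log2 difference was -0.16 (SE 0.14, adjusted p = 0.877 by limma; 95% interval of the ratio 0.708 to 1.13). Without antagomir library 3 it was -0.30 (unadjusted p = 0.0411 and adjusted p = 0.719 by limma), and -0.065 without control library 2. Without the 3 libraries with lens transcripts it was 0.025. Over the alternatives the adjusted p ran from 0.719 to 0.998. Exons of Plxna1 share 970 bases with Gm26811, a gene on the other strand with 10 to 15 reads per library, and whether counting used strand is not given in the sources used here.

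Plexin D1 is the endothelial receptor of semaphorin 3E and restrains sprouting in the mouse retina (ENSMUSG00000030123, chromosome 6, 115954811 to 115995005, minus strand). Plxnd1 was at 2.23, 3.64 and 3.43 FPKM under the antagomir and 2.92, 3.56 and 2.10 FPKM in controls. Each group held 1 of the 2 lowest libraries, and the spread within a group was larger than the difference between groups. The means were 3.10 ± 0.761 and 2.86 ± 0.732 FPKM (SD, n = 3 each), a log2 difference of 0.088 (SE 0.19, adjusted p = 0.954 by limma). The 95% interval of the ratio, 0.775 to 1.46, was the widest among the tested members. The difference was -0.011 without antagomir library 2 and -0.061 without control library 3.

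Endothelial content also varied between the libraries. The 12 endothelial markers, all above 0 in every library, summed to 32.8, 38.6 and 51.6 FPKM in antagomir libraries and to 32.8, 60.9 and 29.5 FPKM in controls. Control library 3 had the lowest Plxnd1 level and the lowest sum, while antagomir library 2 had the highest Plxnd1 level with a sum below those of antagomir library 3 and control library 2. The part of endothelial content in the Plxnd1 values was not tested. The 9 pericyte markers summed to 23.4 to 32.5 FPKM in antagomir libraries and to 33.6 to 46.4 FPKM in controls, so these sums did not overlap. Their mean log2 levels, centred over the libraries, did overlap, at 0.036 in antagomir library 3 and -0.056 in control library 3. Of 7 tested pericyte genes, 1 had groups that did not overlap, where 12% of all tested genes did, and 0 passed adjustment.

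**Figure D2:**
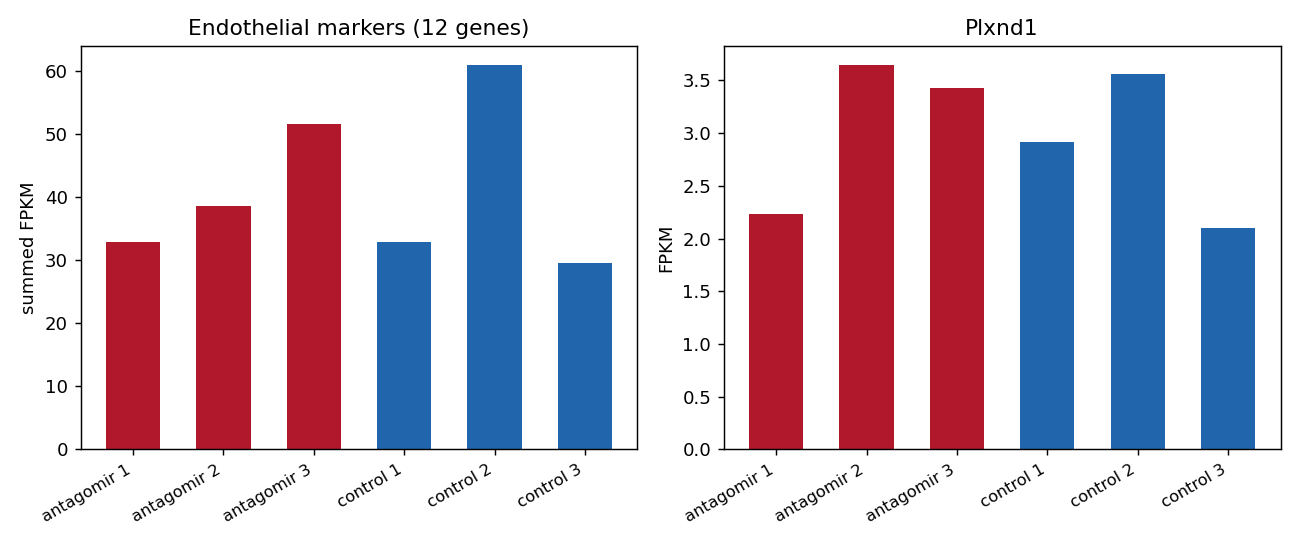
Summed level of 12 endothelial markers (left, FPKM) and level of Plxnd1 (right, FPKM) in each library, as bars from 0, with antagomir libraries in red and control libraries in blue. Control library 3 is lowest in both panels, and control library 2 holds the highest endothelial sum, 60.9 FPKM.

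Slit2 was the steadiest member. Slit2 is a secreted ligand of Robo receptors, known in mice to act on endothelial Robo1 and Robo2 in retinal vessel growth (ENSMUSG00000031558, chromosome 5, 47983138 to 48307733, plus strand). It was at 7.81, 7.50 and 7.94 FPKM under the antagomir and 7.72, 7.17 and 7.36 FPKM in controls, from 2589 to 3330 reads. The 2 lowest libraries were controls and the 2 highest were antagomir libraries, with control library 1 above antagomir library 2. The log2 difference was 0.056 (SE 0.061, adjusted p = 0.904 by limma), and the 95% interval of the ratio, 0.941 to 1.15, was the narrowest. Without the 3 libraries with lens transcripts the difference was 4.95e-05. Its coefficient of variation over the 6 libraries was 3.82%, against a median of 11.5% over all tested genes and 1.85% from counting alone.

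Robo1, the receptor partner of Slit2 (ENSMUSG00000022883, chromosome 16, 72308306 to 73046095, plus strand), was at 1.14, 1.26 and 1.36 FPKM under the antagomir and 1.33, 1.54 and 1.15 FPKM in controls. The log2 difference was -0.051 (SE 0.11, adjusted p = 0.954 by limma), with a ratio interval of 0.803 to 1.16, and it was 0.010 without control library 2. Control library 2 held the highest level of 4 members, Robo1, Sema3e, Sema6a and Plxna1, and the lowest of Slit2 and Ntn4. That library also had the highest sums of lens, endothelial, pericyte, Müller glia, amacrine and horizontal cell markers. The horizontal cell sum was 16.55 FPKM against 16.49 FPKM in antagomir library 1. Control library 2 had the lowest microglia sum, 33.0 FPKM, and was not the highest in the remaining marker lists. With the lens score as a covariate the log2 differences were -0.059 for Robo1, -0.059 for Sema3e, -0.015 for Sema6a and -0.16 for Plxna1, and 0.042 for Slit2 and 0.14 for Ntn4. The part of the other markers in these 6 values was not tested.

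Ntn4 had the highest log2 difference of the tested members, again without passing. Netrin-4 is a laminin-related netrin of vascular basement membranes (ENSMUSG00000020019, chromosome 10, 93640681 to 93747207, plus strand). It was at 2.89, 3.73 and 3.31 FPKM under the antagomir and 2.86, 2.59 and 2.90 FPKM in controls. Antagomir libraries 2 and 3 lay above every control, and antagomir library 1 lay between control libraries 1 and 3. The means were 3.31 ± 0.421 and 2.78 ± 0.170 FPKM (SD, n = 3 each), a log2 difference of 0.18 (SE 0.10, adjusted p = 0.818 by limma; 95% interval of the ratio 0.963 to 1.34). Without antagomir library 1 the difference was 0.26 (unadjusted p = 0.0465 and adjusted p = 0.782 by limma), and over the alternatives it stayed above 0, from 0.11 to 0.26, with adjusted p from 0.775 to 0.991. Ntn4 and Sema3c, the members that hold the seed match CTTGTAT printed above, had the highest ratios of mean FPKM among the 10, 1.19 and 1.27. The Sema3c ratio rests on antagomir library 1, one of those with lens transcripts, and was 0.942 without it. The groups overlapped for both genes, and neither passed its test. Whether the match bears on these ratios was not tested.

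**Figure D3:**
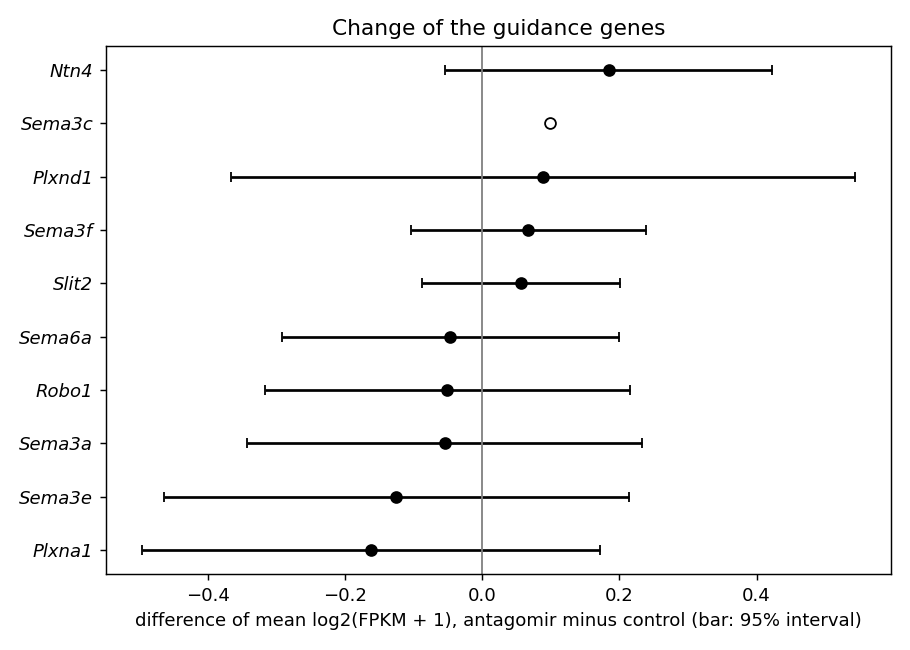
Difference of mean log2(FPKM + 1), antagomir minus control (horizontal axis), for each guidance gene, with 95% intervals from limma; the open circle is Sema3c, which fell below the filter and has no interval. Every interval includes 0, and the differences run from -0.16 for Plxna1 to 0.18 for Ntn4.

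The levels of the members spanned a wide range. By the deposited FPKM, averaged over the 6 libraries, Sema3f stood at 41.8 ± 2.68 and Slit2 at 7.58 ± 0.290 (SD, n = 6). Plxna1 followed at 6.37 ± 1.05, Sema6a at 4.17 ± 0.416, Ntn4 at 3.04 ± 0.407 and Plxnd1 at 2.98 ± 0.681. Sema3e at 1.66 ± 0.341, Robo1 at 1.30 ± 0.149, Sema3a at 0.638 ± 0.0913 and Sema3c at 0.443 ± 0.168 were the lowest. Neighbours whose libraries overlapped were Slit2 and Plxna1, Sema6a and Ntn4, Ntn4 and Plxnd1, Plxnd1 and Sema3e, Sema3e and Robo1, and Sema3a and Sema3c. Sema3f lay above 96.0% of the listed protein-coding genes, and Sema3c above 38.9%.

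This order depends on the length used. The deposited gene length of Slit2 is 25433 bases, while its longest annotated coding transcript has 9960 bases, so its level per coding transcript was 19.4 ± 0.741 FPKM. Robo1 went from 1.30 to 2.83 FPKM and Sema3a from 0.638 to 1.49 FPKM in the same way, while Plxna1 and Ntn4 hardly moved. On that scale Robo1 stood above Sema3e at 2.24 FPKM, and Plxnd1 at 3.15 FPKM just above Ntn4 at 3.12 FPKM. Differences between groups do not depend on this length except through the added 1 of the log scale.

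**Figure D4:**
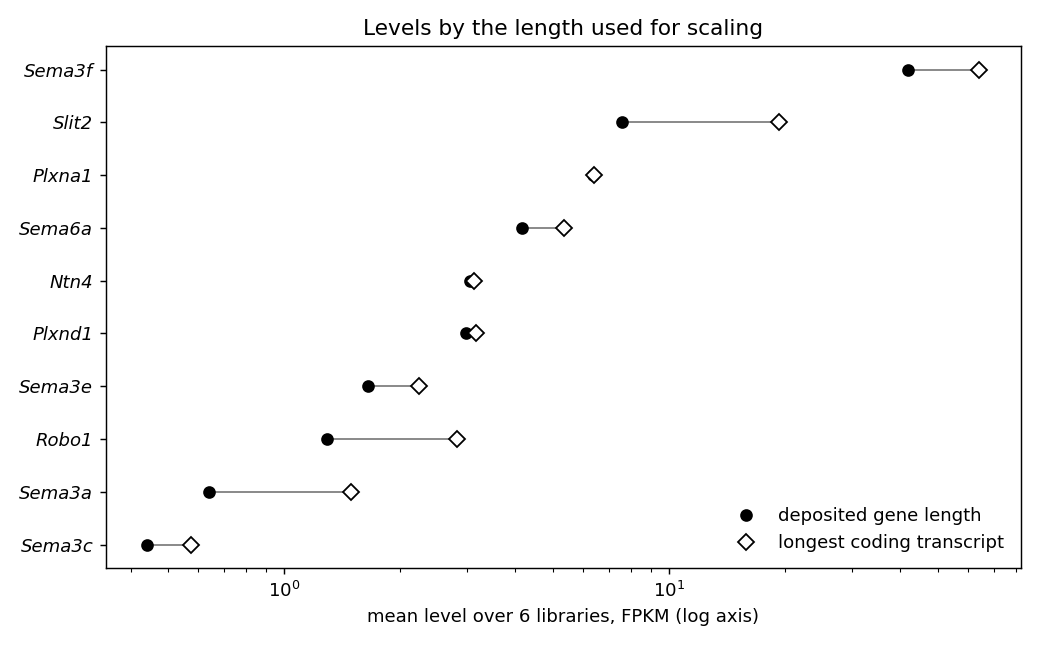
Mean level of each guidance gene over 6 libraries in FPKM (log axis), by the deposited gene length (filled circles) and by the longest annotated coding transcript (open diamonds). Slit2, Robo1 and Sema3a move the most, Slit2 from 7.58 to 19.4 FPKM.

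The other genes of these pathways also did not pass. Of 67 further ligands, receptors and effectors found, 60 were tested, with 24 higher and 36 lower and a median log2 difference of -0.023. Adjusted p was at least 0.801 for each by limma. At an unadjusted p under 0.05 there were 1 higher and 3 lower, where 6.2% of all genes were called. Groups did not overlap for 1 higher and 6 lower, where 6.16% and 5.87% of all genes were so placed. With a lens score as a covariate 2 genes had an unadjusted p under 0.05 by limma, where 4.74% of all genes did. Without the 3 libraries with lens transcripts there were 0, where 4.19% of all genes did. By list, the higher and lower genes numbered 5 and 9 for semaphorins, 3 and 5 for plexins and neuropilins, 0 and 3 for Slits and Robos, 6 and 5 for netrins and their receptors, and 10 and 14 for intracellular effectors.

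Among netrin genes, Ntng2 was placed higher and Dcc lower in antagomir libraries, without passing. Ntng2 encodes netrin-G2, a lipid-anchored netrin of synapses, and was at 45.3, 48.5 and 46.9 FPKM against 42.3, 41.5 and 40.5 FPKM. Every antagomir library lay above every control, with a log2 difference of 0.17 (SE 0.049, unadjusted p = 0.00991 and adjusted p = 0.801 by limma). Dcc, the attractive netrin-1 receptor of ganglion cell axons, was at 1.01, 0.876 and 1.47 FPKM against 1.79, 1.86 and 1.73 FPKM. Every antagomir library lay below every control, with a log2 difference of -0.41 (SE 0.13, unadjusted p = 0.0172 and adjusted p = 0.801 by limma). The 10 ganglion cell markers were likewise lower by mean, with a median log2 difference of -0.23. Their sum in control library 1 was below those of antagomir libraries 1 and 3, and their part in the Dcc values was not tested. The dependence receptor gene Unc5a was at 11.9 ± 0.402 against 11.3 ± 0.970 FPKM, the endothelial netrin receptor gene Unc5b at 2.85 ± 1.18 against 2.96 ± 0.900 and the neogenin gene Neo1 at 9.93 ± 0.852 against 10.4 ± 0.371. The netrin-1 gene Ntn1 lay below the filter, at 0.023 to 0.116 FPKM over all libraries.

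Among plexins and neuropilins, Plxnc1, the receptor of semaphorin 7A, was at 2.50, 2.16 and 2.35 FPKM under the antagomir and 2.70, 3.17 and 3.20 FPKM in controls. The groups did not overlap (log2 difference -0.27, SE 0.094, unadjusted p = 0.0264 and adjusted p = 0.801 by limma). Its ligand gene Sema7a was at 27.5 ± 6.88 against 25.9 ± 3.32 FPKM. The semaphorin 6A receptor genes Plxna2 and Plxna4 were at 15.8 ± 1.17 against 16.2 ± 1.22 and 1.75 ± 0.375 against 1.85 ± 0.0650 FPKM. The neuropilin genes Nrp1 and Nrp2, co-receptors of the secreted semaphorins, were at 1.06 ± 0.173 against 1.09 ± 0.0402 and 1.69 ± 0.604 against 1.66 ± 0.182 FPKM. Plxnb1, a class 4 semaphorin receptor gene, was at 19.2 ± 1.27 against 18.1 ± 1.08 FPKM.

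Of the remaining ligands and Robos, Sema6b was at 6.33, 6.95 and 6.54 FPKM against 7.30, 8.62 and 7.23 FPKM, with every antagomir library below every control (adjusted p = 0.801 by limma). Sema4g was at 20.4 ± 0.935 against 20.7 ± 0.0706 FPKM and the class 4 ligand gene Sema4d at 4.90 ± 0.206 against 5.27 ± 0.315 FPKM. The Robo2 receptor gene was at 4.08 ± 0.458 against 4.66 ± 0.537 FPKM and Slit1 at 3.85 ± 0.868 against 4.31 ± 0.467. Others lay below the filter: the endothelial receptor gene Robo4 was at 0.195, 0.359 and 0.503 FPKM against 0.355, 0.894 and 0.273 FPKM, highest in the control library with the highest endothelial sum, and Slit3 ran from 0.011 to 0.190 FPKM.

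Among intracellular effectors, the Src-family kinase gene Fyn was at 14.1, 11.7 and 13.5 FPKM under the antagomir and 15.0, 14.9 and 15.1 FPKM in controls. Every antagomir library lay below every control (log2 difference -0.19, SE 0.074, unadjusted p = 0.0422 and adjusted p = 0.801 by limma). Farp2, which encodes an exchange factor of semaphorin 3A signalling, was at 5.49 ± 0.479 against 6.20 ± 0.184 FPKM. The collapsin response mediator gene Dpysl3 was at 79.5 ± 1.72 against 76.7 ± 3.14 FPKM, and Srgap3, a Slit-Robo GTPase-activating protein gene, at 27.5 ± 3.08 against 26.7 ± 1.60.

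**Figure D5:**
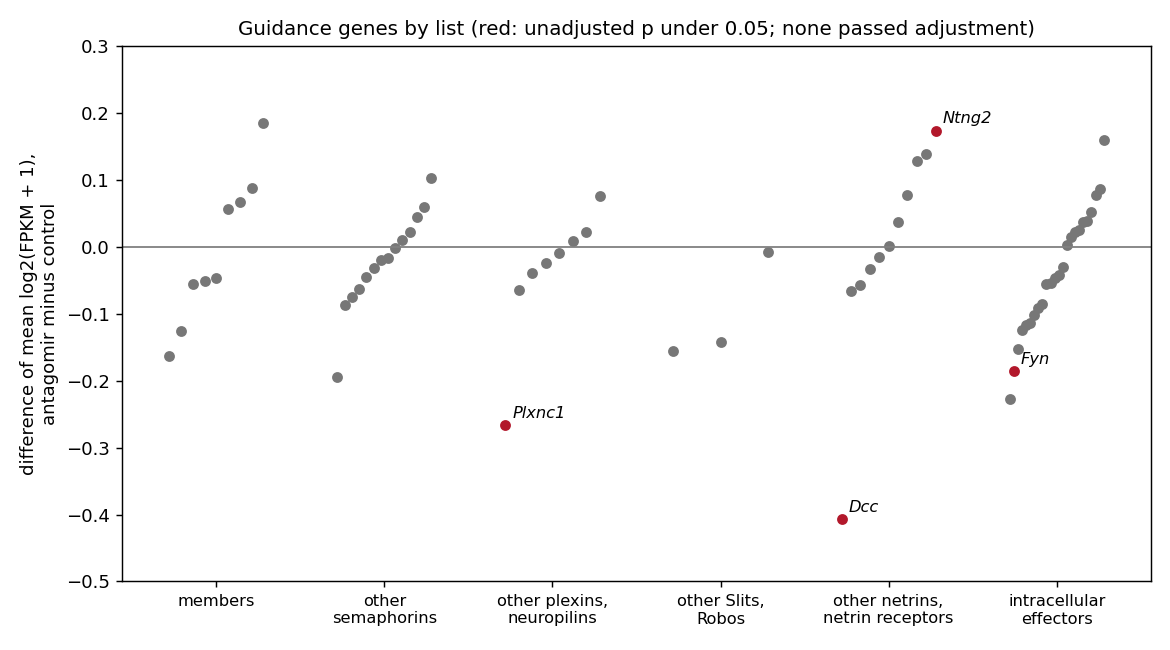
Difference of mean log2(FPKM + 1), antagomir minus control (vertical axis), for 9 tested members and 60 other guidance genes by list; each point is a gene and red points have an unadjusted p under 0.05. The red points are Ntng2 above 0 and Plxnc1, Dcc and Fyn below it, and none passed adjustment.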

How the data were processed

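RNA was sequenced from 6 retinal libraries. The control columns were matched to the sample titles, and the remaining columns were taken as antagomir by elimination. A SMARTER mRNA-Seq kit was used after TRNzol extraction, per the labels' protocols. The submitters' processing notes name GRCm38 and mm10. For the aligner and counter, nothing is given in the sources used here. The authors deposited FPKM values with the length and position of 54532 genes. Multiplied by gene length, 100% of values were whole multiples of a constant per library (tolerance 0.01 reads), which gave the reads. A size factor is the median over genes of a library's reads relative to all libraries. The library total implied by each constant, divided by the size factor, was 15127257 in all 6 libraries. The deposited values were therefore already scaled by size factors and not by total reads. Positions of all 10 members equal those in GENCODE M21. The members and gene lists were chosen with earlier results of these data known.

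The 17453 genes averaging 0.5 FPKM or more entered limma 3.58.1 (R 4.3.3) on log2(FPKM + 1), two-sided, with a mean-variance trend, no covariates and Benjamini-Hochberg adjustment over all genes at 0.05. Fold changes understate those of low genes. Sema3c, below the filter, had an exact permutation test. Named beside the members are direct partners and, per list, the 2 tested genes with the highest mean and the 2 with the smallest p; not all are printed. Library numbers are those of the columns. Every pair of libraries differed beyond sampling noise, with a reduced chi-square of 4.45 to 13.5 over genes. The smallest value was between groups, for antagomir library 1 and control library 3. The largest was within controls, for control libraries 1 and 2, so these distances did not follow the groups.

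Alternatives were other pseudocounts (0.1, 0.01), no filter or a minimum of 2 FPKM, TPM, size factors, quantile normalization, voom on rebuilt reads, eBayes without a trend, a replicate block, a lens score covariate, and leaving out each library or the 3 with lens transcripts.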

Additional observations from a re-analysis of the deposited data

How the results depend on the processing

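None of the 9 tested members passed an adjusted p of 0.05 under any alternative run. The directions of Sema3f, Slit2 and Ntn4 held in every alternative run, with Slit2 at 4.95e-05 without the 3 libraries with lens transcripts. The changed filters, eBayes without a trend and the replicate block leave the log2 difference as it is, so they cannot turn a direction. The size factor run cannot either, since the deposited values already carry size factors, and the difference of Ntn4 was 0.184 with and without it. Directions turned without the 3 libraries with lens transcripts for Sema3a (0.049), Sema3e (0.078), Sema6a (0.16) and Plxna1 (0.025). In that run the difference was 0.23 for Ntn4, 0.21 for Plxnd1, 0.11 for Sema3c, 0.057 for Sema3f and -0.012 for Robo1. Directions also turned without control library 2 for Sema3e (0.0027), Sema6a (0.0068) and Robo1 (0.010), and without antagomir library 1 for Sema3c (-0.021). For Plxnd1 they turned without antagomir library 2 (-0.011) or control library 3 (-0.061). The cause was not tested. Over single libraries left out, the log2 difference ran from -0.021 to 0.17 for Sema3c, -0.22 to 0.0027 for Sema3e, -0.13 to 0.0068 for Sema6a, -0.061 to 0.25 for Plxnd1, -0.11 to 0.010 for Robo1, -0.30 to -0.065 for Plxna1, 0.0089 to 0.11 for Sema3f and -0.11 to -0.023 for Sema3a. Leaving out 1 library gave 0 to 1 of 9 members at an unadjusted p under 0.05, where 4.24% to 6.75% of all genes were called. It gave 0 to 2 of 9 members without overlap, where 3347 of 17492 to 4280 of 17474 tested genes had none, since fewer libraries overlap less often. Other guidance genes at that p ran from 2 to 6. Over all genes, leaving out 1 library gave 0 to 2 past adjustment. Without the 3 libraries with lens transcripts, which leaves 1 control library, 3 of 9 members did not overlap, where 11470 of all 17411 tested genes did not. Voom called 1 gene, eBayes without a trend 5, and the lens covariate left 2 other guidance genes at an unadjusted p under 0.05.

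With a replicate block, 0 genes passed adjustment, 856 had an unadjusted p under 0.05, and the block changed no call of a member. The block treats equal numbers as pairs, but correlations of deviations in same-numbered libraries were -0.19, -0.10 and -0.14, so the numbers are not taken as a pairing. Depth limits Sema3c most, with 28 to 78 reads and a counting error of 15.2%, against 1.75% for Sema3f.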

Other observations

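The antagomir binds the mature microRNA, which these libraries do not measure. The hairpin gene Mir381 was listed at 0, 2 and 1 reads in antagomir libraries 1, 2 and 3 and at 0 in each control library, too few to check the labels.

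The coefficient of variation over 6 libraries, groups pooled, was 37.9% for Sema3c, where counting gives 15.2%, and 22.8% for Plxnd1, where it gives 5.68%. It was 20.6% for Sema3e, where counting gives 6.64%, and 16.5% for Plxna1, where it gives 3.42%. For Sema6a it was 9.98%, where counting gives 4.27%. The median tested gene was at 11.5%, Slit2 at 3.82% and Sema3f at 6.42%.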
